A study of Arabidopsis thaliana with 6 samples.

Results

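The genes described here encode proteins of the small (40S) subunit of the cytosolic ribosome of Arabidopsis. The set was defined by locus, as 59 genes that fall into 22 families of paralogues, and a gene counts as measured where the array annotation gives it a probe set of its own. It is a part of the subunit, and 35 further loci of it are read separately near the end. By that rule 37 of the 59 genes, in 19 families, were measured, out of 13286 genes with such a probe set on the array. A further 13 genes lie only on 6 probe sets that name several paralogues at once, and 9 are not listed by the annotation, so both kinds have no value here. In 3 families, RPS6 and RPS23 among them, no member was measured. Counts and medians below cover all 37 measured genes, and 33 of them are described by name. Every measured gene had 1 such probe set, so no choice between probe sets was needed.

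The small subunit holds the messenger RNA during translation and carries the decoding site. Its head contains, among others, RPS3, RPS10, RPS12, RPS15, RPS16, RPS19, RPS20 and RPS25, and its body and platform contain RPS3a, RPS4, RPS7, RPS9, RPS13, RPS14, RPS24 and RPS26. In plants each of these proteins is encoded by several genes, and paralogues can differ in where and when they are transcribed. Ribosomal protein genes as a class are strongly transcribed in growing root tissue.

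Root protoplasts were transfected with a plasmid in which the 35S promoter drives HRS1 (AtNIGT1), a transcription factor of nitrate signalling, fused to the glucocorticoid receptor, and were sorted by the red fluorescent protein of that plasmid. All protoplasts came from nitrate-treated roots and were kept in nitrate and in 35 µM cycloheximide, an inhibitor of translation. The +DEX group had 10 µM dexamethasone, which lets the fusion enter the nucleus, and the −DEX group had none, with 3 ATH1 arrays each. Arrays of dexamethasone-treated protoplasts without the fusion were not analysed here, nor were arrays without cycloheximide. The comparison asks which transcripts differ with DEX, and so with entry of HRS1 into the nucleus, without new protein being made. An effect of dexamethasone itself was not tested separately. HRS1 has no probe set of its own in the annotation, so its transcript was not followed. The 35S promoter is active in most cell types, so the fusion was not tied to one of them.

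Values are log2 intensities computed from the authors' deposited table, with the arrays scaled to share one median. Median deposited intensities lay between 66.3 and 92.9. The array of −DEX replicate 1 was the least like the rest, since its Spearman correlations with them averaged 0.708, and those of the other arrays averaged 0.777 to 0.822. A probe set is called above background on an array where it exceeds the 95th percentile of the 27 Bacillus controls, a limit between a log2 of 5.11 and 6.62. Of the fixed markers of root cell types, only EXPA7 of root hairs and AT1G62500 of the cortex had a probe set of their own, and both lay below that limit on every array, so the label of root tissue could not be checked through them. Whether the replicates were separate preparations is not said in the labels, and the p-values cover the spread between these arrays, possibly a technical one. In bulk samples, fewer cells that express a gene and less RNA per cell cannot be told apart.

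Of the 37 genes, 1 passed the threshold in the main fit. AT5G52650, a gene of the RPS10 family, whose protein sits at the edge of the head near the channel through which the messenger RNA enters, fell by 3.73 ± 0.53 on the log2 scale (SE), or 13.3-fold (limma adjusted p = 0.011 over all 22746 probe sets). No other gene of the set passed the threshold of 0.05, and the smallest adjusted p among the other 36 was 0.55. The same test called 0.119% of all probe sets lower and 0% higher. At an unadjusted p under 0.05, 2 of the 37 genes were lower and 4 higher, against 4.1% and 2.49% of all probe sets. At an unadjusted p under 0.01 they were 2 and 0, against 0.923% and 0.339%.

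AT5G52650 read 13.35, 13.83 and 13.02 without and 8.66, 10.83 and 9.52 with DEX. The 3 values without DEX lay close together, all were above every value with DEX, and +DEX replicate 1 was the lowest. The group means were 13.40 ± 0.41 and 9.67 ± 1.09 (SD, n = 3 each). By mean brightness the probe set stood at percentile 94.3 of all probe sets, and it was above background on all 6 arrays, so the fall was measured within the readable range.

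Whether AT5G52650 passed the threshold depended on how the variance was modelled and on which arrays entered, while the size of the fall moved less. Leaving the variance trend out of eBayes gave an adjusted p of 0.50, and a floor of 5 (log2) under all values gave 0.60, at the same difference of −3.73. Leaving out −DEX replicate 2 gave −3.52 with an adjusted p of 0.13, leaving out +DEX replicate 1 gave −3.23 with 0.080, and leaving out +DEX replicate 3 gave −3.66 with 0.081. Over all probe sets, 27 were called lower in the main fit. That count was 0 without the trend, with the floor of 5 and without −DEX replicate 2. It was 3 without +DEX replicate 1 and 4 without +DEX replicate 3.

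The other measured gene of the RPS10 family, AT4G25740, read 5.79, 7.41 and 5.57 without and 4.39, 4.86 and 6.04 with DEX. Its groups overlapped, and it was above background on 2 of 3 −DEX and 1 of 3 +DEX arrays. The difference was −1.16 ± 1.14 (SE; limma adjusted p = 0.86), so a change was not detectable for this dim probe set. RPS10B, the remaining paralogue, has no value here. The log2 ratio of AT4G25740 to AT5G52650 within an array, in which the array scaling and a fixed difference in probe sensitivity cancel, was read on the 3 arrays where both genes were above background. It was −6.42 and −7.45 on −DEX replicates 2 and 3 and −3.48 on +DEX replicate 3. On the other 3 arrays AT4G25740 lay below background and the ratio has only an upper bound, so a shift of this pair was not established.

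By the TAIR10.1 gene table, AT5G52650 has HSP90.1 as the nearest protein-coding gene on one side, which encodes a heat-inducible chaperone and has no probe set of its own in this annotation. On the other side AT5G52655 has none either, and AT5G52660, the gene beyond it, read 10.32, 8.41 and 8.84 without and 9.13, 9.15 and 8.41 with DEX. These values overlapped, with a difference of −0.29 ± 0.65 (SE; limma adjusted p = 0.95).

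**Figure D1:**
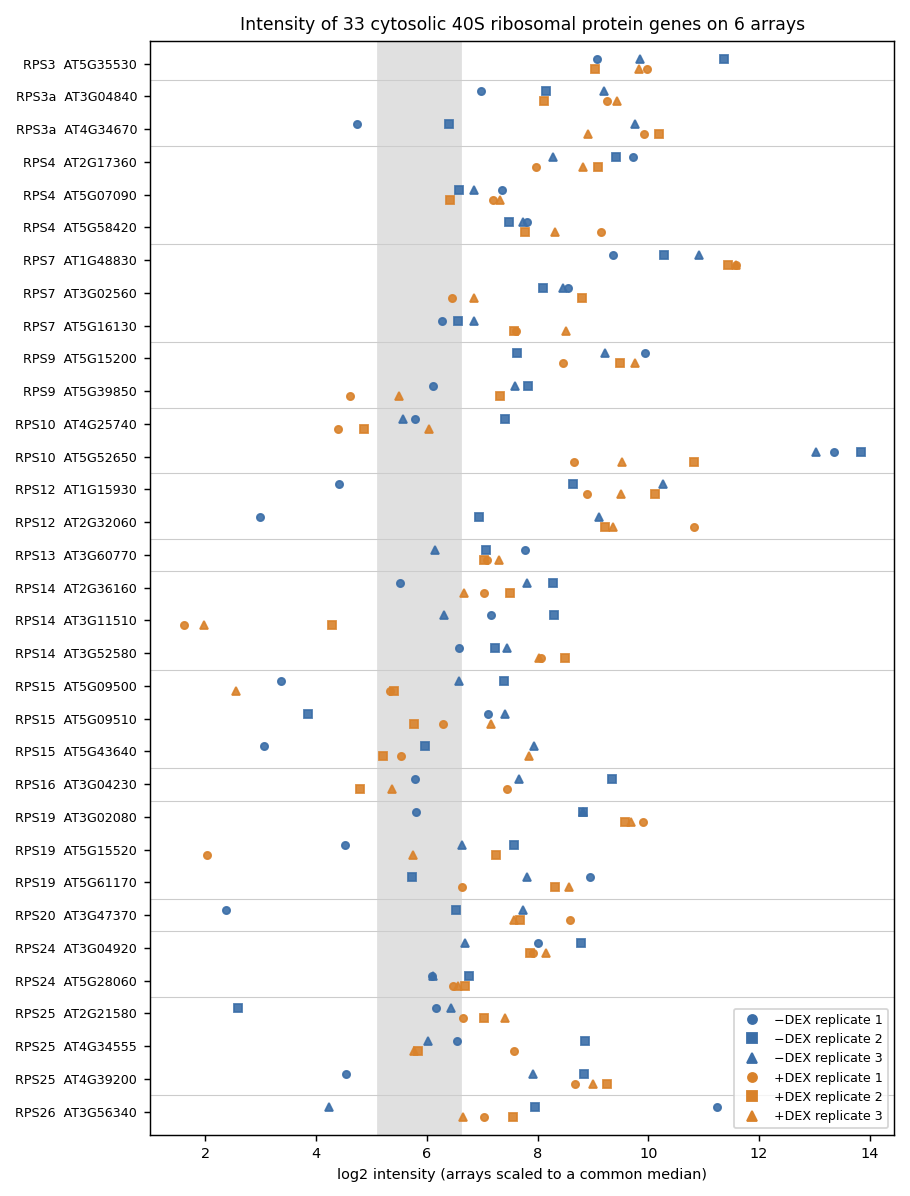
Log2 intensity (x axis, arrays scaled to a common median) of 33 measured 40S genes, by family, on the 3 −DEX arrays (blue) and the 3 +DEX arrays (orange), with one symbol per replicate. The grey band spans the background limits of the 6 arrays, 5.11 to 6.62. AT5G52650 of RPS10 lies between 13.02 and 13.83 without and between 8.66 and 10.83 with DEX.

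The brightness of the 40S genes ranged widely. The mean over 6 arrays ran from 4.94 to 11.54 among the named genes, and its median over the 37 genes was 7.44, against 6.02 for all probe sets. Of the 37, 30 were above the median probe set, 9 were among the brightest 25% and 3 among the brightest 10%. Among the last were AT5G52650 and AT1G48830 of RPS7, at percentile 91.6. On all 6 arrays 14 genes were above background, 22 were so on 3 to 5 arrays, and 1 on a single array. Brightness also depends on the probes, so these values rank probe sets and not transcript amounts.

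AT5G35530 of RPS3, a protein at the entry of the messenger RNA channel, read 9.07, 11.36 and 9.85 without and 9.97, 9.04 and 9.83 with DEX, with −DEX replicate 2 alone at the top. The dimmest of the named genes were AT3G11510 of RPS14, AT5G09500 of RPS15 and AT5G15520 of RPS19, with mean log2 intensities over the 6 arrays of 4.94, 5.10 and 5.62. None of them was above background on more than 3 arrays.

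The largest difference belonged to a dim gene. AT3G11510, of the RPS14 family of the platform, where the messenger RNA leaves, read 7.15, 8.30 and 6.31 without and 1.61, 4.28 and 1.97 with DEX. All 3 values without DEX were above background and all 3 with DEX were below it, so its level with DEX has only an upper bound. The −DEX mean was at least 3.41-fold above that bound, and the fitted difference of −4.63 ± 1.28 did not pass the threshold (SE; limma adjusted p = 0.55). Its paralogue AT3G52580 read 6.59, 7.23 and 7.45 without and 8.07, 8.50 and 8.02 with DEX. Here each value with DEX was above each value without, at a difference of 1.10 ± 0.75 (SE; limma adjusted p = 0.80). AT2G36160, the third RPS14 gene, read 5.52, 8.28 and 7.80 without and 7.04, 7.51 and 6.68 with DEX, which overlap. Ratios with AT3G11510 were not tested, because it was not above background on any +DEX array.

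Among the 37 genes, the +DEX values lay wholly below the −DEX values in 2 genes (5.41%, against 7.55% of all probe sets) and wholly above them in 6 (16.2%, against 4.99%). The 2 were AT5G52650 and AT3G11510. The 6 were AT2G32060 of RPS12, AT2G21580 of RPS25, AT3G02080 of RPS19, AT1G48830 and AT5G16130 of RPS7, and AT3G52580 of RPS14. After quantile normalization the counts were also 2 and 6, against 6.52% and 6.08% of all probe sets, and with the values as deposited they were 2 and 8, against 5.97% and 6.74%. None of the 6 passed the limma threshold, where the smallest adjusted p of a higher value was 0.74.

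AT2G32060, of the RPS12 family of the head, had the largest positive difference. It read 2.99, 6.94 and 9.11 without and 10.83, 9.22 and 9.36 with DEX. The −DEX values spread over a wide range, with replicate 1 below background, and replicate 3 reached within a small step of the +DEX values. Its difference was 3.46 ± 1.20 (SE; limma adjusted p = 0.74). Without −DEX replicate 1 it was 1.78, and AT2G21580 of RPS25 then stood higher, at 2.52. AT1G15930, the other RPS12 gene measured, read 4.41, 8.63 and 10.26 without and 8.89, 10.12 and 9.51 with DEX, again with −DEX replicate 1 far below the rest. Its difference was 1.74 ± 1.12 (SE; limma adjusted p = 0.79), and 0.06 without −DEX replicate 1. The log2 ratio of AT1G15930 to AT2G32060 was 1.43, 1.70 and 1.16 without and −1.94, 0.90 and 0.16 with DEX. On −DEX replicate 1 both genes lay below background, so its ratio of 1.43 is not a reading of the pair. On the other 5 arrays the ratio did not overlap between the groups, and on +DEX replicate 1 the order of the pair was turned.

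AT3G02080, of the RPS19 family, which in yeast and human cells is needed to mature the small subunit, read 5.80, 8.82 and 8.82 without and 9.90, 9.57 and 9.69 with DEX. The +DEX values were close together, and −DEX replicate 1 was below background (difference 1.91 ± 0.80, limma adjusted p = 0.75). Without that array the difference was 0.90. Its paralogue AT5G15520 read 4.52, 7.57 and 6.63 without and 2.03, 7.25 and 5.75 with DEX. The ratio of AT3G02080 to AT5G15520 was 1.28, 1.25 and 2.19 without and 7.87, 2.33 and 3.94 with DEX, a shift of 3.14, the largest of the pairs tested. That size rests on +DEX replicate 1, where AT5G15520 lay at 2.03, below background, and without this array the shift was 1.56. Both genes were above background only on −DEX replicates 2 and 3 and +DEX replicate 2, with ratios of 1.25, 2.19 and 2.33, so the size of the shift is not a measured one. AT5G61170, the third gene of this family, read 8.95, 5.73 and 7.81 without and 6.64, 8.32 and 8.57 with DEX, and its groups overlapped.

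All 3 RPS7 genes were measured, whose protein lies in the body. AT1G48830 read 9.36, 10.28 and 10.91 without and 11.58, 11.44 and 11.59 with DEX. Each +DEX array was above each −DEX array, and the 3 +DEX arrays were nearly equal (difference 1.36 ± 0.49, limma adjusted p = 0.74). AT5G16130 read 6.27, 6.57 and 6.85 without and 7.61, 7.58 and 8.51 with DEX, also without overlap, although only 1 of 3 −DEX arrays was above background. AT3G02560 read 8.55, 8.09 and 8.45 without and 6.45, 8.81 and 6.85 with DEX. Its values overlapped through +DEX replicate 2, and its difference was −0.99 ± 0.80. The ratio of AT1G48830 to AT3G02560 was 1.82 ± 0.89 without and 4.16 ± 1.35 with DEX (SD, n = 3 each) and did not overlap (exact two-sided permutation p = 0.1, the smallest that 3 against 3 arrays allow). Both genes were above background on all 6 arrays. The ratio of AT1G48830 to AT5G16130, on the 4 arrays where both were above background, was 4.06 on −DEX replicate 3 and 3.97, 3.86 and 3.08 with DEX.

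**Figure D2:**
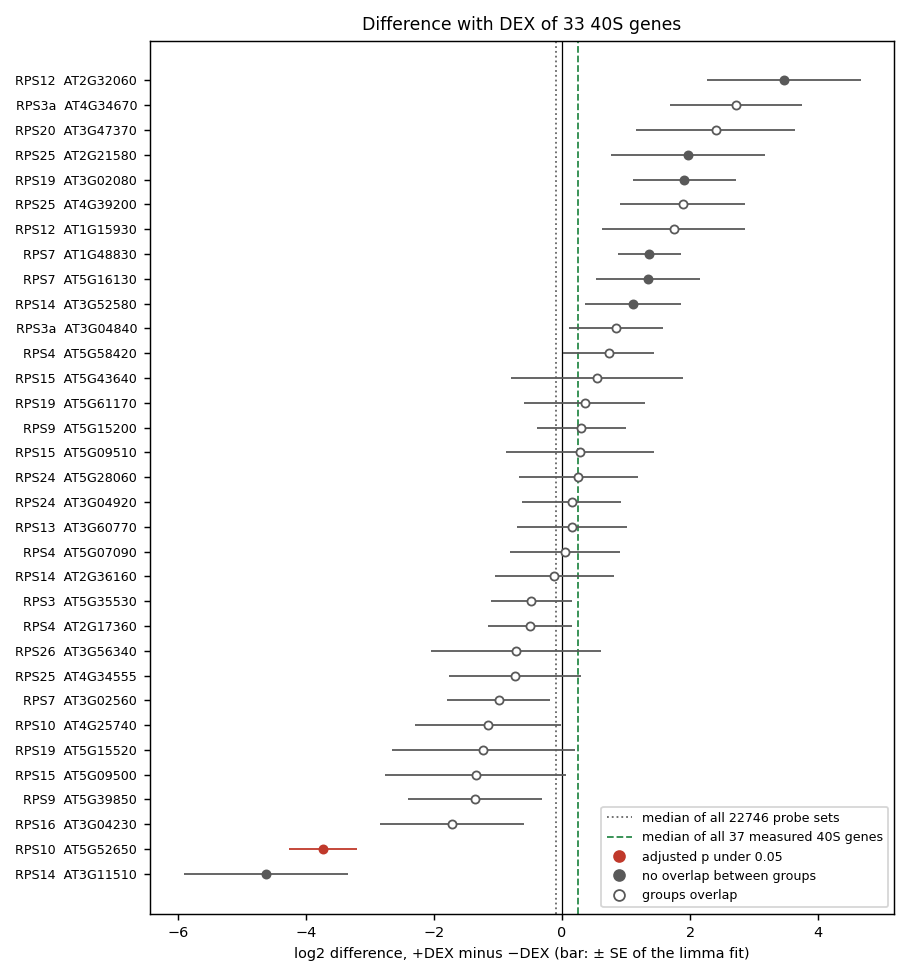
Log2 difference (+DEX minus −DEX) of 33 of the measured genes with its SE from the limma fit, ordered by size. AT5G52650 (red) is the one gene with an adjusted p under 0.05, filled points mark genes whose groups do not overlap, and the dashed and dotted lines mark the medians of the 37 genes (0.25) and of all probe sets (−0.10).

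In RPS25, a protein of the head that in yeast and human cells takes part in internal initiation, 3 genes were measured, and none of their 3 pairwise ratios was without overlap. AT2G21580 read 6.17, 2.59 and 6.43 without and 6.65, 7.04 and 7.41 with DEX. Its groups did not overlap, but the gap was small and −DEX replicate 2 alone was far below (difference 1.97 ± 1.20, limma adjusted p = 0.79, and 0.74 log2 without that array). Only 1 of 3 −DEX arrays was above background for this gene, so the size of its difference is not firmly measured. AT4G39200 read 4.54, 8.84 and 7.92 without and 8.68, 9.26 and 9.0 with DEX. Its difference was 1.88 ± 0.97 (SE; limma adjusted p = 0.76), and 0.60 without −DEX replicate 1. AT4G34555 read 6.55, 8.85 and 6.03 without and 7.58, 5.84 and 5.77 with DEX. For both AT4G39200 and AT4G34555 the groups overlapped.

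For the remaining named genes of the head the groups overlapped throughout. AT3G47370 of RPS20 read 2.37, 6.53 and 7.74 without and 8.58, 7.68 and 7.57 with DEX, so that only −DEX replicate 3 reached the +DEX range. Its difference was 2.40 ± 1.24 (SE; limma adjusted p = 0.76), and 0.81 without −DEX replicate 1. On −DEX replicates 1 and 2 this gene lay below background, so neither size is firmly measured. AT3G04230 of RPS16, whose protein has a tail that reaches towards the transfer RNA in the decoding site, had a difference of −1.72 ± 1.12 and was above background on 3 of 6 arrays. The RPS15 genes AT5G09500 and AT5G09510 are neighbours in the genome, and their differences were −1.35 ± 1.41 and 0.28 ± 1.16. AT5G43640 of the same family was at 0.54 ± 1.34. The 3 RPS15 probe sets were each above background on 3 to 5 arrays, and their order changed from array to array.

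In the body and platform, AT4G34670 of RPS3a, a protein to which the initiation factor eIF3 binds, read 4.74, 6.40 and 9.76 without and 9.92, 10.20 and 8.91 with DEX. Its −DEX replicates 1 and 2 were below background and replicate 3 lay within the +DEX range (difference 2.71 ± 1.03, limma adjusted p = 0.75, and a difference of 1.60 without replicate 1). The paralogue AT3G04840 was above background on all 6 arrays and differed by 0.84 ± 0.74. In RPS4, AT2G17360 differed by −0.50 ± 0.65, AT5G07090 by 0.04 ± 0.86 and AT5G58420 by 0.73 ± 0.71. The ratio of AT5G07090 to AT5G58420 was −0.44, −0.90 and −0.88 without and −1.95, −1.37 and −0.97 with DEX, a shift of −0.69 without overlap. On −DEX replicate 2, AT5G07090 lay below background.

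In RPS9 the difference was 0.30 ± 0.70 for AT5G15200 and −1.36 ± 1.05 for AT5G39850. AT5G28060 of RPS24 was the steadiest gene of the set, with values of 6.10, 6.76 and 6.11 without and 6.47, 6.69 and 6.57 with DEX, a range of 0.67. Its paralogue AT3G04920 differed by 0.15 ± 0.77. The log2 ratio of AT3G04920 to AT5G28060 was 2.02 and 0.58 on −DEX replicates 2 and 3 and 1.46, 1.19 and 1.58 with DEX, while on −DEX replicate 1 AT5G28060 lay below background. AT3G60770 of RPS13 was above background on all arrays and differed by 0.15 ± 0.86. AT3G56340 of RPS26, a protein at the exit of the messenger RNA channel, read 11.23, 7.95 and 4.24 without and 7.04, 7.56 and 6.65 with DEX. Its −DEX values spanned the whole range on both sides of the +DEX values, so its difference of −0.72 ± 1.32 says little.

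Paralogues were compared through their log2 ratio within each array. Of 24 pairs of measured paralogues, 22 in 12 families had both genes above background on at least 1 array of each group. The ratio did not overlap between the groups in 6 of the 22 pairs (27.3%). No share was computed for ratios of other gene pairs. The 12.5% of all probe sets without overlap is for single values, so it is no baseline for ratios. Only 2 of the 22 pairs had both genes above background on all 6 arrays, and 1 of them, AT1G48830 with AT3G02560, was among the 6. In the other 5 at least 1 ratio includes a value below background, so their lack of overlap is not firmly measured. The 6 were AT4G25740 with AT5G52650 (RPS10), AT1G15930 with AT2G32060 (RPS12), AT3G02080 with AT5G15520 (RPS19), AT5G07090 with AT5G58420 (RPS4), and AT3G02560 with each of AT1G48830 and AT5G16130 (RPS7). Pairs that share a gene are not independent. Except for the RPS4 pair, each held a gene whose own values did not overlap, namely AT5G52650, AT2G32060, AT3G02080, AT1G48830 or AT5G16130. Such a ratio partly repeats the difference of that gene. The shift in these 6 pairs ranged in size from 0.69 to 3.14. No pair passed after adjustment over the 22 pairs (exact two-sided permutation test, smallest adjusted p = 0.37), and with 3 against 3 arrays no pair could. The same paralogue was the brighter on all 6 arrays in 8 pairs, and the order was mixed in 14. Only AT1G48830 with AT3G02560 among the 8, and AT2G17360 with AT5G58420 among the 14, had both genes above background on every array. For the other pairs the order rests in part on arrays with a gene below background. It also depends on the probes, so it ranks probe sets and not transcript amounts.

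**Figure D3:**
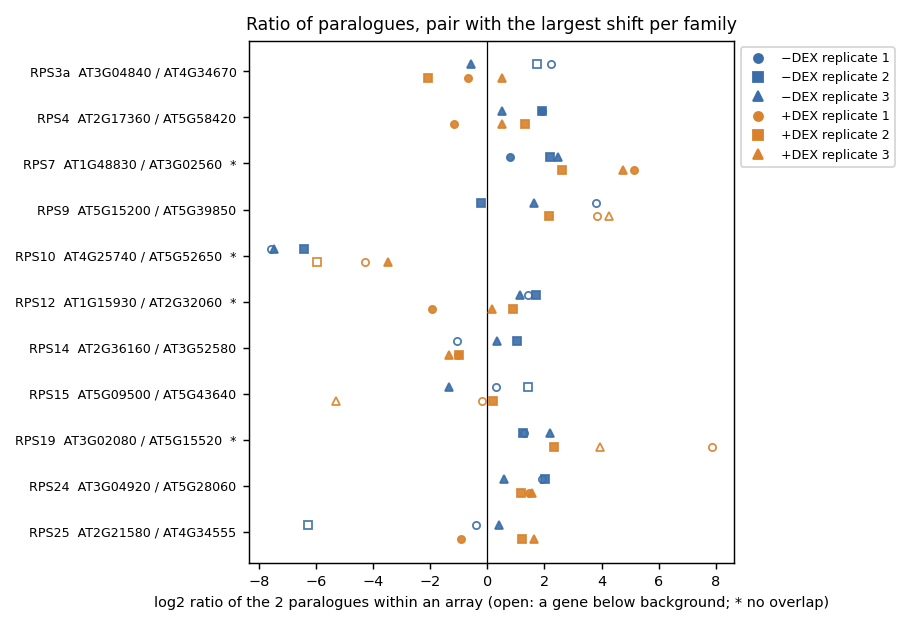
Log2 ratio of 2 paralogues within each array (x axis), for the pair with the largest shift in each of 11 families, on −DEX arrays (blue) and +DEX arrays (orange), one symbol per replicate. Open symbols mark arrays on which a gene of the pair was below background, and asterisks mark pairs whose groups do not overlap. The RPS7 pair, with filled symbols throughout, has ratios between 0.80 and 2.46 without and between 2.63 and 5.13 with DEX.

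As a group, 15 of the 37 genes had a negative difference (40.5%, against 53.9% of all probe sets) and 22 a positive one (59.5%, against 46.1%), with a median of 0.25 against −0.10 for all probe sets. Since the scaling sets where 0 lies, the distance between both medians is the more readable value, and it was 0.35 in the scaled values, 0.16 under quantile normalization and 0.35 in the deposited values. The 40S genes were also brighter than most probe sets, at a median percentile of 65.1. Without the dimmest 40% the medians of 40S genes and of all probe sets were 0.29 and 0.05. Without the dimmest 60% they were 0.35 and 0.04, and with the floor at 5 (log2) 0.15 and −0.00. Differences below −1 occurred in 8 of the 37 genes (21.6%, against 21.5% of all probe sets) and differences above 1 in 10 (27%, against 16.4%). Without +DEX replicate 3 the median of the 37 genes was 0.05, with 18 negative. The 17 genes of the head had a median of 0.35 with 7 negative, and the 20 of the body and platform one of 0.15 with 8 negative. The SE of a single gene ranged from 0.49 to 1.49, with a median of 0.94, and in 17 of the 37 genes the difference was smaller than its SE.

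The spread between replicates was unequal. The median SD of the 37 genes was 1.34 on the −DEX and 0.68 on the +DEX arrays, and the −DEX group had the larger SD in 28 of 37 genes (75.7%, against 61.4% of all probe sets). AT5G52650 was an exception, at 0.41 without and 1.09 with DEX. The array of −DEX replicate 1 held the lowest value of 13 of the 37 genes (35.1%, against 20.6% of all probe sets). It also held the lowest value of 22 of the 77 measured genes of the large (60S) subunit, against 8 to 15 on each other array. The excess was therefore not particular to the 40S genes. Of the 37 genes, 20 were above background on −DEX replicate 1, against 27 to 35 on the other arrays. The deviation of the head genes from their own means had a median of −0.95 on −DEX replicate 1, and that of the body and platform genes −0.07. On the other arrays these medians ranged from 0.05 to 0.93 for the head and from −0.14 to 0.24 for the body and platform. Only 4 of the 17 head genes were above background on all 6 arrays, against 10 of the 20 others. A drop particular to the head on −DEX replicate 1 was therefore not established. Without −DEX replicate 1 the median difference of the 37 genes was 0.25, the same as with it. AT5G52650 then fell by 3.76.

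**Figure D4:**
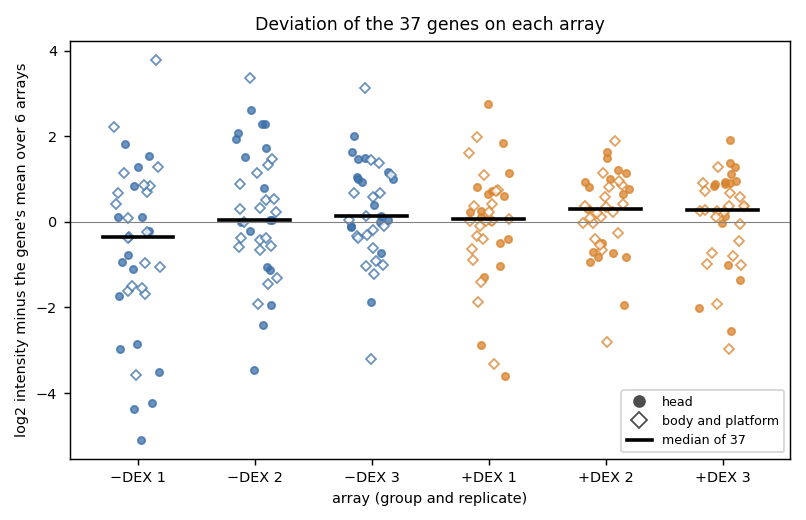
Log2 intensity of each of the 37 genes minus its own mean over the 6 arrays (y axis), by array (x axis), for genes of the head (filled circles) and of the body and platform (open diamonds); −DEX in blue, +DEX in orange. Black bars are medians over the 37 genes, −0.35, 0.05 and 0.14 without and 0.06, 0.30 and 0.26 with DEX.

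Genes of the large subunit and of translation were read for comparison. Of 124 loci of the cytosolic 60S subunit, 77 were measured, of which 0 passed the limma threshold, with 9 at an unadjusted p under 0.05, 2 lower (2.6%, against 4.1% of all probe sets) and 7 higher (9.09%, against 2.49%). Their median difference was 0.41, with 29 negative, and 0.23 without −DEX replicate 1. AT4G16720 of the RPL15 family read 7.87, 7.84 and 9.75 without and 10.92, 9.84 and 10.73 with DEX. Its groups were separated by a small gap, at a difference of 2.01 ± 0.64 (SE; limma adjusted p = 0.74). AT4G00810, of the acidic P1 proteins of the stalk, was below background on all −DEX and above it on all +DEX arrays, at least 2.92-fold higher with DEX. AT5G48760 of RPL13a was also below background on all −DEX and above it on all +DEX arrays, at least 1.56-fold higher with DEX. AT3G28500, of the P2 proteins of the stalk, went the other way, at −3.68 ± 1.29 without overlap (SE; limma adjusted p = 0.74). It was above background on 1 −DEX and no +DEX array, so the size of this difference was not measured.

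Of 35 further loci of the small subunit, 8 had a probe set of their own, and 0 passed the threshold, with 1 higher at an unadjusted p under 0.05 (12.5%, against 2.49% of all probe sets). The median difference of the 8 was 1.39, with 2 negative, and 2 of the 8 were below background on all arrays. AT5G27700, of the RPS21 family, read 5.56, 7.39 and 6.16 without and 10.40, 8.51 and 8.27 with DEX. Its groups did not overlap, at a difference of 2.69 ± 0.85 (SE; limma adjusted p = 0.74). AT3G53890 of the same family differed by 2.70 ± 1.29 with overlap, and AT3G57490 of RPS2 by −2.19 ± 1.17 without overlap, although it was above background on 1 of 3 +DEX arrays. AT2G39590 of RPS15a was below background on every array. Translation factors had 2 of 30 loci measured. EIF4A-2, an RNA helicase of initiation, differed by −0.27 ± 0.54, and AT4G20980, a subunit of eIF3, by −0.10 ± 0.61. RAPTOR1, a partner of the TOR kinase that acts on ribosome production, was the 1 measured gene of 15 and differed by 0.41 ± 0.78.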

How the data were processed

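The authors' deposited table holds a linear intensity for every probe set of each array. TRIzol RNA was labelled with a 3′ in vitro transcription kit, per the labels' protocols. How probes were summarised is not given in the sources. The trimmed mean (2%) of the deposited intensities was 500 for each array. Arrays were brought to one median, values under 1 were set to 1, and log2 values were used; 64 of 22810 probe sets were controls and 22746 were tested. The test was limma (version 3.58.1, R 4.3.3) with the group as term and eBayes with a variance trend, two-sided, Benjamini-Hochberg adjusted at 0.05. It was first tried on simulated data whose variance followed the trend exactly, so the trial does not bear on departures from that trend. Groups came from the sample titles. Probe sets were named through the array annotation and gene identifiers of TAIR10.1 where they named 1 gene; families follow standard Arabidopsis nomenclature, since the gene table gives no products. Members and lists were chosen with earlier results of these data known. Named genes are those past the threshold and their family, those without overlap, the extremes of level and difference, the pair with the largest shift per family, and up to 4 genes with the smallest p per further list; other members are named to account for them, except 4 measured genes that are not reported by name here. The split into head and body was made after the values were seen. Where a group was never above background, the ratio is given as at least the other group's mean over the background limit. Alternatives covered scaling, variance model, filters, floor, array weights, the replicate block and each array left out.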

Additional observations from a re-analysis of the deposited data

How the results depend on the processing

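The number of 40S genes called lower was 1 throughout, except 0 when eBayes had no trend, 0 when values were floored at 5 (log2), 0 to 1 with single arrays left out, and 2 at an unadjusted p under 0.05 or under 0.01. By limma it was 0 higher in every setting run, with 4 higher at an unadjusted p under 0.05. The fall of AT5G52650 lay between −3.23 and −4.31 with single arrays left out. Genes with a negative difference numbered 7 of 23 without the dimmest 60%, where fewer genes remain. Paralogue pairs without overlap numbered 6 of 22 in the scaled and the deposited values, 5 under quantile normalization and 5 with values floored at 5 (log2). They numbered 8 to 11 with single arrays left out, where 2 arrays face 3 and overlap is rarer by construction, and 1 of the 2 pairs with both genes above background on all arrays; these 2 alternatives were added after seeing the data. Values that turned sign were all of genes not called. Under quantile normalization AT5G07090 was at −0.11 and AT3G60770 at −0.05, as deposited AT2G36160 was at 0.07, and with the floor at 5 AT5G09510 was at −0.11 and AT5G43640 at −0.11. With single arrays left out, values of the following genes took both signs, in ranges of −0.96 to 0.41 for AT2G36160, −0.41 to 0.63 for AT3G04920, −2.51 to 0.99 for AT3G56340, −0.28 to 0.54 for AT3G60770, −1.33 to 0.11 for AT4G34555, −0.14 to 0.33 for AT5G07090. Further ranges were −0.86 to 0.92 for AT5G09510, −0.35 to 0.81 for AT5G15200, −2.35 to 0.26 for AT5G15520, −0.99 to 0.15 for AT5G35530, −0.76 to 1.68 for AT5G43640, −0.53 to 1.07 for AT5G61170. Among genes that kept their sign, single arrays moved AT5G09500 between −2.56 and −0.41 and AT3G04230 between −2.63 and −0.85. AT5G39850 moved between −2.12 and −0.77, and AT4G34670 between 1.60 and 4.11. AT2G32060 moved between 1.78 and 4.84, and AT1G15930 between 0.06 and 2.98. AT3G47370 moved between 0.81 and 3.49, and AT4G39200 between 0.60 and 2.75. The cause of these turns and moves was not tested, and no other setting changed the sign or call of a named gene. The median of the 37 genes lay between 0.05 and 0.26 with single arrays left out and between 0.15 and 0.44 in the other settings. Deviations of same-numbered arrays correlated by 0.025, −0.0051 and 0.014, and those of other pairs by −0.036 to 0.025, so the labels' numbers show no clear pairing. With the replicate block 1 gene was lower, AT5G52650, at −3.73 with a limma adjusted p of 0.0027, and no call changed. Signal over background limits the dim genes: 23 of the 37 were below background on at least 1 array.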
